A study of Cricetulus griseus with 3 samples.

Results

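The RNA recovered with mitotic microtubules was compared with that of interphase microtubules across every transcript of the deposited table, using 2 of the 3 libraries of the study. The series sequenced poly-A RNA from microtubules of CHO cells, an established epithelial-like line from the ovary of the Chinese hamster (Cricetulus griseus), with 1 library each for interphase microtubules, mitotic microtubules and midbodies. Interphase cells were held in 2 mM thymidine, which stalls DNA synthesis, for 16 h before their microtubules were purified. Mitotic cells had the same 2 mM thymidine for 16 h, then a release of 5 h, then 4 to 5 h in nocodazole, a drug that keeps tubulin from assembling, at 0.1 ug/ml. They were then knocked off the dish, which collects rounded dividing cells, and left in fresh medium for 15 min before the same purification. The midbody cells were treated like the mitotic ones but spent 65 min in fresh medium, and midbody values are given here only beside the others.

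The labels give the interphase cells no release, nocodazole, shake-off or fresh medium, so stage and treatment cannot be told apart. With thymidine as the only block, the interphase cells would stand at the start of or in S phase, a statement about the drug and not a measurement of these cells. None of the 3 libraries is whole-cell RNA. A difference below can therefore lie in how much of an RNA the cells held or in how much of it came down with microtubules, and these cannot be told apart. In a bulk library, fewer cells holding an RNA and less RNA per cell cannot be told apart either. With 1 library a side there was no replicate spread to compare a difference with, no test was made and no p-value is given. Values are RPKM, reads scaled by transcript length and by the library total. Mitotic values are those the authors headed Metaphase, which matched only the sample titled Mitosis. A level is an RPKM. A log2 ratio is the mitotic minus the interphase log2(RPKM + 1), which understates differences of low transcripts. A fold or factor is the plain ratio of RPKM, and its bracketed interval is the exact 95% binomial (Clopper-Pearson) interval on both read counts. Such intervals cover counting error only, since the reads carry no molecular identifiers and may be copies of each other. Where a pair of levels is given, the mitotic one comes first and the interphase one second.

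Microtubules are polymers of alpha and beta tubulin that radiate from the centrosome in interphase and are rebuilt as a bipolar spindle in mitosis, where kinetochores tie chromosomes to their plus ends. Some messenger RNAs travel on microtubules through motor proteins, and RNAs that encode spindle and centrosome proteins have been found on spindles of several animals. Ribosomes, and the endoplasmic reticulum sheets that carry many of them, can also be attached to microtubules, and transcription is largely switched off in mitotic cells. Genes are named below by the human protein that the authors paired with each hamster transcript, so the symbols are those of the human counterparts. For extreme transcripts the UniProt accession of that protein follows in brackets.

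The mitotic library held 8059745 assigned reads and the interphase library 12672056. Of 21607 transcripts in the table, 20821 had a human protein, and 13176 reached 1 RPKM in at least one of both libraries and were compared. Among these, 2183 (16.6%) were at least 2-fold higher in the mitotic library and 2725 (20.7%) lower by as much on the log2(RPKM + 1) scale. The median log2 ratio was -0.13, and the central 50% of transcripts lay between -0.84 and 0.64. At 4-fold, 3.65% were higher and 4.6% lower. In the interphase library the leading transcripts included FTH1, the ferritin heavy chain gene, with 869 RPKM against 351 in the mitotic library. The 2-fold shares are the background against which each gene list below is read. Transcripts just inside the 2-fold line had log2 ratios of 1.0004 and -1.0001, and those just outside 0.9998 and -0.9998, so the line cuts through a continuum.

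Transcripts without a human protein were more often on the mitotic side. Of 314 compared, 36% were at least 2-fold higher and 15.6% lower, with a median of 0.26. Of the 12862 with a human protein, 16.1% were higher and 20.8% lower, with a median of -0.14. Reads were partly shared with other transcripts for 25.3% of all compared transcripts, which the counting intervals do not cover. Where such a transcript is named below, it is said.

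**Figure D1:**
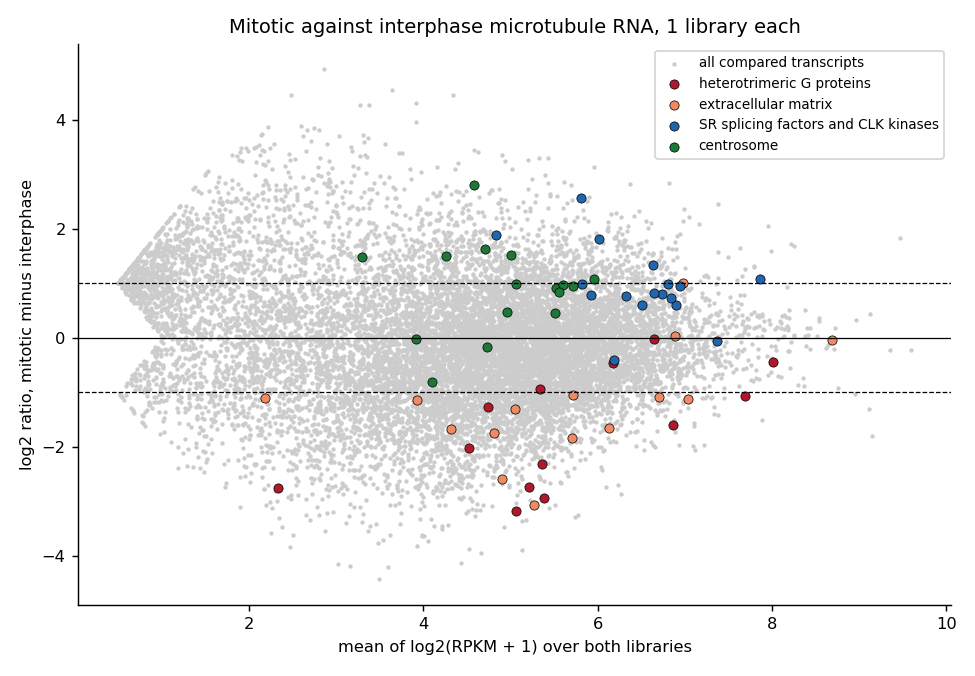
Each grey point is 1 of 13176 compared transcripts, with the mean log2(RPKM + 1) of both libraries across and the log2 ratio of mitotic to interphase up, 1 library each. Dashed lines mark 2-fold. Coloured points are members of 4 gene lists: the 13 heterotrimeric G protein genes lie below 0, except that GNG5, at -0.02, crossed it under both other scalings, and 13 of 16 centrosome genes lie above 0, or 14 under those scalings.

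At the high end stood transcripts that were mostly close to absent from the interphase library. OMD (Q99983), which encodes osteomodulin, a small leucine-rich proteoglycan of bone, was at 39 RPKM in the mitotic and 0.313 in the interphase library, from 396 and 5 reads, and at 42.2 in midbodies. It was 125-fold (interval 52.9 to 386) higher in the mitotic library. CST6 (Q15828), a secreted inhibitor of cysteine proteases, was at 59.3 and 1.58 RPKM, a log2 ratio of 4.55. MYF6 (P23409), a transcription factor of muscle differentiation, was at 25.1 and 0.191 RPKM, from 167 and 2 reads. PRLH (P81277), a neuropeptide precursor, was at 66.3 and 2.39, and ALAS2 (P22557), the heme synthesis enzyme of red cell precursors, at 22.8 and 0.687. These are genes known from other tissues, and none of them reached 3.33 RPKM in interphase, the level of the putative helicase gene DQX1, which was at 93.8 in the mitotic library. Others among the 15 highest were FMR1NB, a testis antigen gene, SLC39A5, a zinc transporter gene, LIN7B, of cell junction scaffolds, and GIMAP5, a GTPase gene of lymphocytes, with log2 ratios from 3.82 to 4.27. The 2 transcripts with no human protein among the 15 had log2 ratios of 4.27 and 3.99. The second of them was the fifth most abundant transcript of the mitotic library, with 597 RPKM against 36.7.

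At least 4 of the 15 highest lie inside the span of another gene in the hamster annotation, CriGri-PICRH-1.0. This was looked up after their values were seen, and only for these 4 and OGN. The share of nested genes among the other transcripts was not counted. OMD, ECM2 and ASPN, all genes of matrix proteins, lie within the span of CENPP, which encodes a kinetochore protein, and so does OGN. ECM2 was at 15.3 RPKM in the mitotic and 0.22 in the interphase library, ASPN at 15 and 0.211, and OGN at 11.2 and 0.141. CENPP itself was at 22.5 and 12.5 RPKM, a log2 ratio of 0.80. LRRTM2, a synaptic adhesion gene and the fourth of these, lies within the span of CTNNA1, the alpha catenin gene. LRRTM2 was at 16.8 and 0.216 RPKM, whereas CTNNA1 was lower in the mitotic library, with a log2 ratio of -1.22. The nested genes were thus high on the mitotic side beside 1 host that was higher, though short of 2-fold, and 1 that was lower. Whether the counting used strand is not stated in the sources used here, and the part of host gene RNA in these values was not tested.

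At the low end stood transcripts of up to 134 RPKM in interphase that were scarce in the mitotic library. ZMAT3 (Q9HA38), a p53 target that binds RNA, was at 1.42 RPKM in the mitotic and 51.4 in the interphase library and at 7.14 in midbodies. It was lower in the mitotic library by a factor of 36.2 (interval 19.5 to 75.9). SMAD3 (P84022), which carries signals of transforming growth factor beta to the nucleus, was at 4.15 and 89.1 RPKM, lower by a factor of 21.5 (interval 16 to 29.5). CAVIN1 (Q6NZI2), a coat protein of the caveolae of the cell surface, was at 8.12 and 134 RPKM, lower by a factor of 16.5 (interval 13.4 to 20.6). Several of the other lowest transcripts encode proteins of membranes or secretion. TMEM123 (Q8N131), a surface mucin-like protein gene, was at 1.81 and 51.2 RPKM, and GYPC (P04921), a surface glycoprotein gene known from red cells, at 0.919 and 33.3. CCR7 (P32248), a chemokine receptor gene, was at 1.09 and 37.3, and SLC41A1 (Q8IVJ1), a magnesium transporter gene, at 3.48 and 54.7. ITM2C, a single-pass membrane protein gene, and CHST11, a Golgi enzyme gene of chondroitin sulfation, had log2 ratios of -3.88 and -3.83. SRXN1, a reductase of oxidized peroxiredoxins, PRKX, a protein kinase, and TAX1BP3, a PDZ domain protein, are not membrane-spanning, and their genes had log2 ratios of -3.96, -3.77 and -3.74. All of these transcripts were chosen for their ratios, so the values describe them and test nothing.

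**Figure D2:**
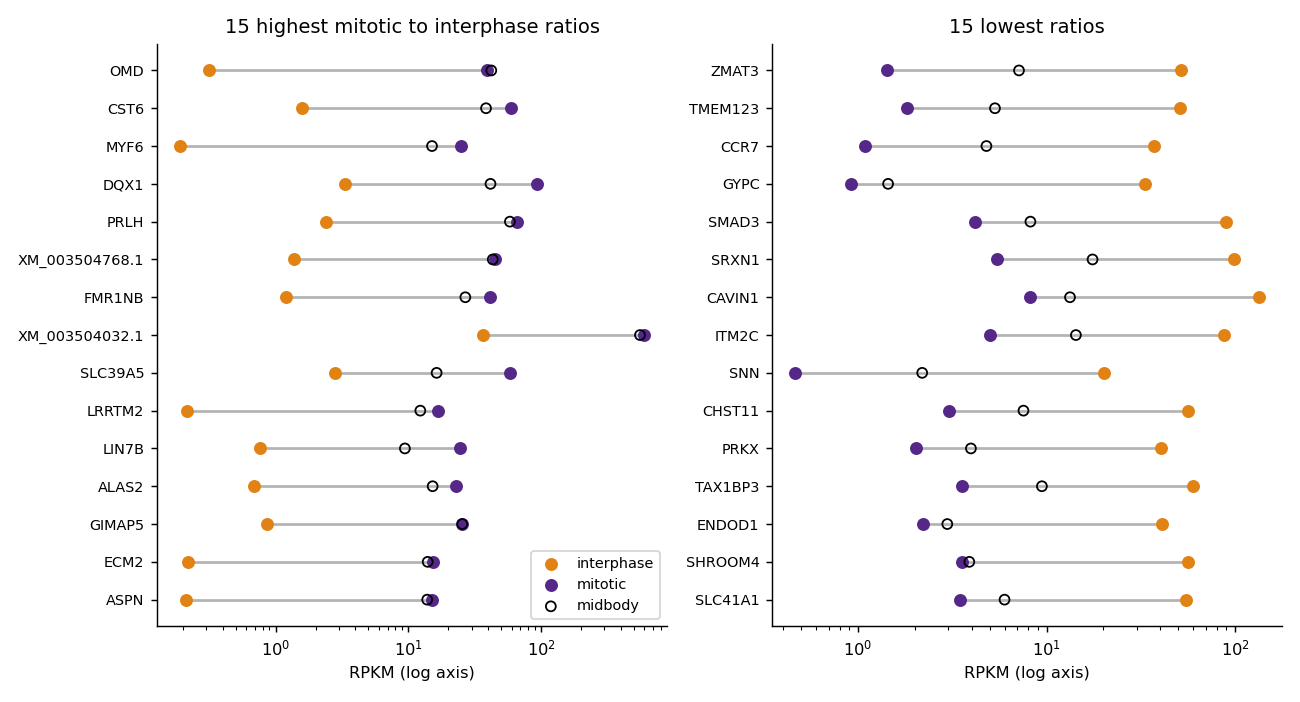
RPKM on a log axis of the 15 transcripts with the highest and the 15 with the lowest mitotic to interphase ratio among those with at least 50 reads and 10 RPKM on their higher side. Orange points are the interphase, purple the mitotic and open circles the midbody library. OMD, in the top row, had 39 RPKM mitotic, 0.313 interphase and 42.2 midbody, and ZMAT3 had 1.42, 51.4 and 7.14.

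Genes of the mitotic machinery were not higher in the mitotic library as a block. Cyclins and the anaphase machinery had a median below that of all transcripts but few members past the line: of 25 genes, 2 were at least 2-fold higher and 3 lower in the mitotic library (12%, against 20.7% of all transcripts), with a median log2 ratio of -0.51. CCNB1, the cyclin that drives entry into mitosis, was at 62.8 RPKM in the mitotic and 108 in the interphase library. CDC20, which turns the anaphase-promoting complex on, was at 105 and 161. CKS1B, a small CDK subunit, was at 23 and 79.9, lower by a factor of 3.48 (interval 2.52 to 4.89), and MYBL2, a transcription factor of G2 genes, was at 67.5 and 157. On the other side stood FBXO5, which encodes the inhibitor EMI1 of the anaphase-promoting complex, with 61.9 against 20.6 RPKM, or 3.01-fold (interval 2.71 to 3.34) higher. CDC25C, a phosphatase that activates CDK1, was at 26.5 and 9.36, with shared reads.

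Mitotic kinase genes were also split. CDK1 stood at 46.3 RPKM in both libraries, and AURKA, the spindle pole kinase gene, at 78.1 and 81.6. PLK1 was at 90.3 and 128, and NEK2, a kinase gene of centrosome separation, at 48.6 and 109.5, lower by a factor of 2.25 (interval 2.05 to 2.48). PLK4, the kinase that starts centriole duplication, had 152 against 37 RPKM. MASTL, the Greatwall kinase that restrains a phosphatase in mitosis, had 203 against 64.9, and WEE1, which holds CDK1 off, had 57.9 against 21.5. PLK4 and MASTL carried shared reads. In this list of 16, which includes the chromosomal passenger complex, 3 were at least 2-fold higher, 1 lower, and the median was -0.04. The share of higher genes, 18.75%, was near the 16.6% of all transcripts.

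Centrosome genes were the list with the highest median of the 39 with at least 3 compared members. Of 16 genes, 6 were at least 2-fold higher in the mitotic library (37.5%, against 16.6% of all transcripts) and 0 lower. Their median was 0.96. CEP290, a protein of centriolar satellites and the base of the cilium, was at 62.5 RPKM in the mitotic and 8.06 in the interphase library and 60.6 in midbodies, 7.76-fold (interval 7.18 to 8.4) higher in the mitotic library. CEP250, of the linker that holds centrosomes together, was at 53.5 and 18 RPKM. SASS6, which forms the cartwheel of new centrioles, was at 45.1 and 13.9, and its partner in duplication CEP152 at 31.1 and 10.4, both with shared reads. CENPJ, which sets centriole length, was at 15.5 and 4.87. Pericentrin, PCNT, the scaffold around the centrioles, was just under the line at 72.2 and 37. The exceptions on the interphase side were ODF2, an appendage protein gene with shared reads, at 11.9 and 21.8, STIL at 24 and 27.1, and NEDD1 at 14 and 14.2. Centrosome transcripts are long, with a median of 4307.5 bases, and the longest 20% of all compared transcripts had a median log2 ratio of 0.07, against -0.13 over all. The part of length in the centrosome values was not tested.

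Kinetochore genes were split, with a share of higher members near that of all transcripts. Of 37, 7 were at least 2-fold higher (18.9%, against 16.6% of all transcripts) and 3 lower, with a median of 0.35. The higher ones included CENPF and CENPE, large proteins of the outer kinetochore. CENPF was at 168 and 62.8 RPKM, 2.68-fold (interval 2.6 to 2.75) higher, and CENPE, a kinesin motor, at 155 and 74.9. Of the inner kinetochore, CENPC was at 48.7 and 17.9, CENPK at 64.2 and 21.3, and CENPQ at 81.5 and 31.4. The shugoshin genes, whose proteins guard cohesion at centromeres, were at 58.9 and 31.4 for SGO1 and 62.8 and 26.4 for SGO2. Checkpoint genes were split. The checkpoint kinase genes BUB1 and TTK, the last with shared reads, were at 59.1 and 38.6 and at 78.2 and 47.5. MAD2L1, whose protein blocks CDC20 until chromosomes attach, was at 32.1 and 75.8 RPKM, lower by a factor of 2.36 (interval 2.11 to 2.65), and its partner gene BUB3 was at 43.3 and 107. PMF1, of the MIS12 complex, was at 25.1 and 71.3.

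Kinesins of the spindle had 2 of 14 genes at least 2-fold higher, CENPE among them, and 0 lower, with a median of 0.43. The share of higher genes, 14.3%, was near the 16.6% of all transcripts. KIF20B, a motor of late cytokinesis, was at 91.1 and 40.5 RPKM with shared reads. KIF22, which pushes chromosome arms outward, was at 137 and 77.8, and KIF2A, a depolymerase, at 67.4 and 37.3. KIF20A, a motor of the central spindle, was on the other side at 57.5 and 78.3. The other spindle and cytokinesis genes were near balance, with 1 of 18 higher (5.6%, against 16.6% of all transcripts) and 0 lower. Their median was 0.01. The higher one was HMMR, a spindle pole adaptor, at 66.3 and 28.8 RPKM. ANLN, the anillin of the contractile ring, was the lowest at 50.8 and 96.8, and PRC1, the bundler of the central spindle, was at 67.4 and 63.1 with shared reads.

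Genes of chromosome structure were divided. SMC4 and NCAPD2, which encode condensin subunits that compact mitotic chromosomes, were at 166 and 66.6 and at 244 and 113 RPKM. SMC4 was 2.5-fold (interval 2.4 to 2.6) higher in the mitotic library. RAD21, the cohesin subunit that separase cuts, was lower, at 38.2 and 124 RPKM, by a factor of 3.25 (interval 2.97 to 3.55). CDCA5, the cohesin protector sororin, was at 11.6 and 25.3, and the cohesin ring genes SMC3 and SMC1A were at 108 and 86 and at 115 and 125. Over the 19 genes of this list, 2 were at least 2-fold higher and 2 lower, with a median of 0.15. Both shares, 10.5%, were below the 16.6% higher and 20.7% lower of all transcripts. The polyadenylated variant histone genes numbered 5, with 0 higher and 2 lower (40%, against 20.7% of all transcripts, and 1 under both other scalings). Their median was -0.08. H2AX, the variant marked at DNA breaks, was among the lower ones at 81.9 and 167 with shared reads.

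**Figure D3:**
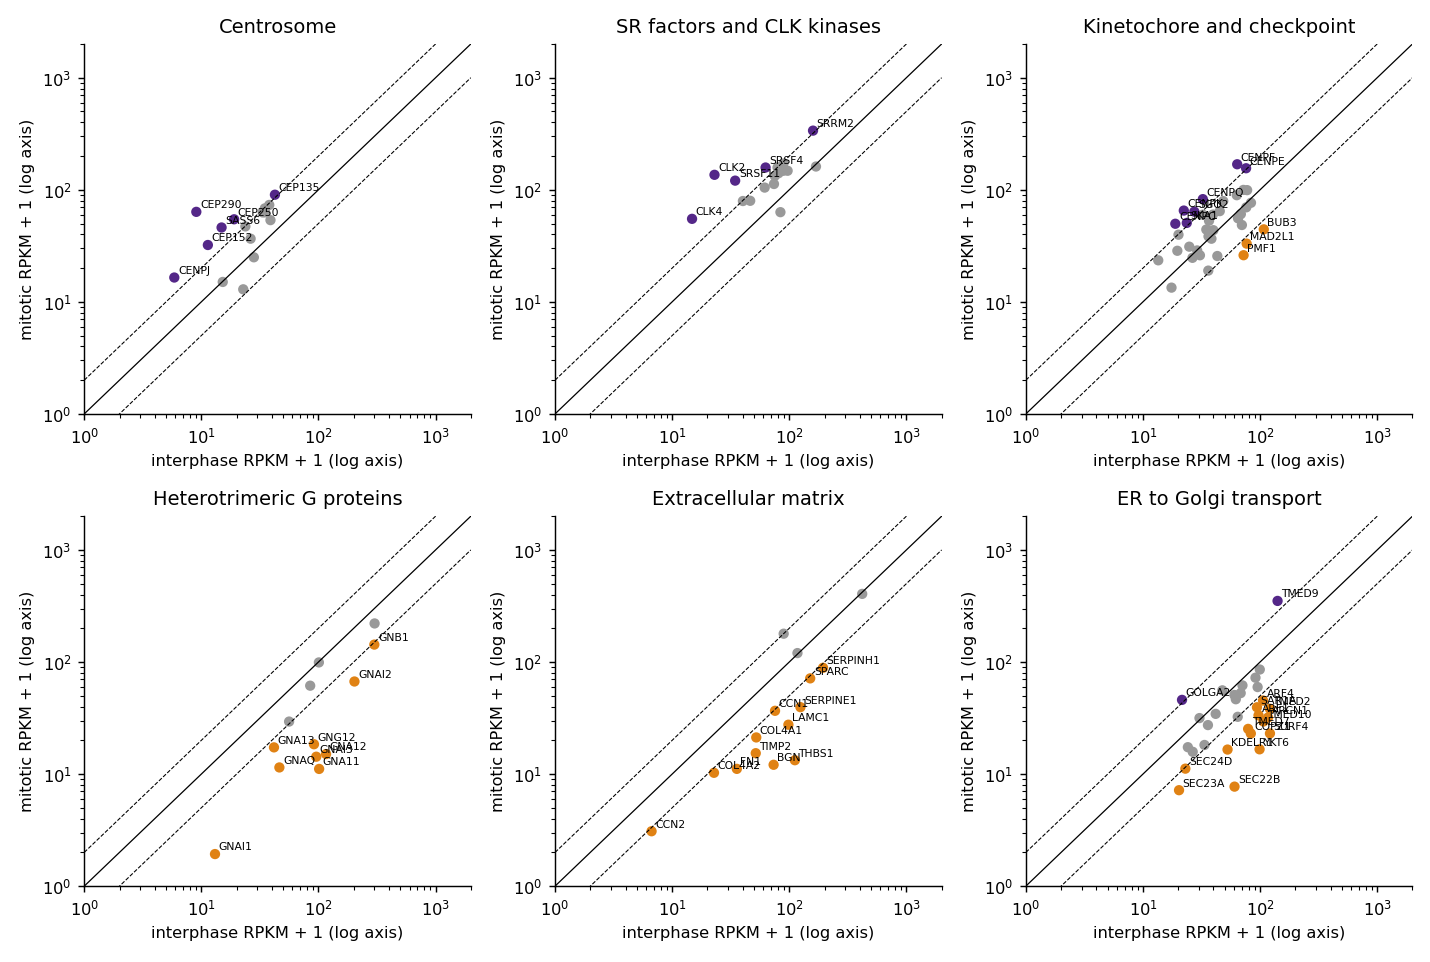
Mitotic against interphase RPKM + 1 on log axes for 6 gene lists, 1 point per gene. The solid line marks equal levels and the dashed lines 2-fold, with purple points at least 2-fold higher on the mitotic side, orange points at least 2-fold lower, and grey points between. Centrosome and splicing genes lie on or above the solid line with few exceptions, and G protein and matrix genes lie mostly below the lower dashed line.

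Replication genes had a median below that of all transcripts, although few passed the 2-fold line. Of 45, 1 was at least 2-fold higher in the mitotic library and 6 were lower (13.3%, against 20.7% of all transcripts), with a median of -0.33. RRM2, the small subunit of ribonucleotide reductase, was at 83.2 and 204 RPKM. MCM6, a subunit of the replicative helicase, was at 40.7 and 94.8, lower by a factor of 2.33 (interval 2.17 to 2.51). MCM7, of the same ring, was on the other side at 162 and 134, so subunits of 1 complex differed. The polymerase genes POLA1, POLA2, POLD1 and POLE all had ratios above 0, from 0.54 for POLA1 to 1.03 for POLA2, the list's higher member.

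G1 and S phase regulators had 0 of 19 at least 2-fold higher and 5 lower (26.3%, against 20.7% of all transcripts), with a median of -0.70. All 3 D-type cyclin genes, whose proteins pair with CDK4 and CDK6, were lower: CCND3 was at 23.7 and 99.6 RPKM, CCND1 at 33.8 and 83.1 and CCND2, short of 2-fold, at 33.6 and 55.2. CCND3 was lower by a factor of 4.2 (interval 3.75 to 4.7). E2F7, a repressor of the E2F family, was at 5.61 and 20.5. The E-type cyclin genes lay above 0, at 10.7 and 8.98 for CCNE1 and 38.4 and 24.7 for CCNE2.

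Of 29 DNA repair genes, 8 were at least 2-fold higher (27.6%, against 16.6% of all transcripts) and 2 lower (6.9%, against 20.7%). Their median was 0.30, or 0.15 over the 26 genes with whole-number reads. BRCA2, of homologous recombination, was at 63.1 RPKM in the mitotic and 13 in the interphase library and 53.9 in midbodies, 4.85-fold (interval 4.59 to 5.13) higher. RAD50, of the end-binding MRN complex, was at 79.5 and 30.8 RPKM. FANCA, of the crosslink repair pathway, was at 81.4 and 28.2 with shared reads. Nucleotide excision repair was represented by XPA, at 30.9 and 11.2, and ERCC2, at 75.4 and 30.7. The lower genes were LIG4, the ligase of end joining, at 5.25 and 16.7, and XRCC2, also of homologous recombination, at 7.1 and 17.1.

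Splicing factors of the SR family and the CLK kinases that phosphorylate them mostly had ratios above 0. Of 17 genes, 5 were at least 2-fold higher (29.4%, against 16.6% of all transcripts) and 0 lower. Their median was 0.82, and 15 had ratios above 0. CLK2 was at 135 RPKM in the mitotic and 22 in the interphase library, 6.15-fold (interval 5.62 to 6.73) higher, with shared reads. CLK4 was at 54 and 13.8 RPKM, CLK1 at 78.4 and 39.2 and CLK3 at 104 and 60.7, so all 4 kinases had the same direction. SRSF11 was at 119.7 and 33.5, 3.57-fold (interval 3.41 to 3.74) higher, and SRSF4 at 157 and 61.8. SRRM2, a large scaffold of nuclear speckles, was at 336 and 159. SRSF1 and SRSF3 were the exceptions below 0, at 62.1 and 83 and at 160.3 and 168, the last with shared reads. RNA polymerase II and its elongation factors had 0 of 9 higher, 1 lower (11.1%, against 20.7% of all transcripts) and a median of -0.15. The lower one was POLR2A, the catalytic subunit gene, at 17.4 and 43.7 RPKM.

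Gene lists of the secretory pathway had medians below that of all transcripts at each step. At the entry stood the list of signal recognition particle, translocon, signal peptidase and oligosaccharyltransferase genes. Of 25, 10 were at least 2-fold lower (40%, against 20.7% of all transcripts) and 1 was higher, with a median of -0.83. SEC61A1, which forms the channel of the translocon, was at 15.8 RPKM in the mitotic and 102 in the interphase library and 19.1 in midbodies, lower by a factor of 6.48 (interval 5.77 to 7.31). SRP14, of the signal recognition particle, was at 11.4 and 79.7 RPKM, and SPCS3, of signal peptidase, at 3.92 and 33.7. STT3B, a catalytic subunit of the oligosaccharyltransferase, was at 22.6 and 73.9. Other members of the same complexes stayed close, such as SRP68 at 76.4 and 71.4 and SSR4 at 115 and 109.8. The higher one was SEC61G, with 11.5 reads against 0 and with shared reads. It was 6.03-fold higher when 3 reads were put in place of the interphase 0, which leaves out the counting error of the mitotic reads. With a floor of 10 RPKM, or with whole-number reads only, 0 members were at least 2-fold higher.

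Among chaperones and stress genes of the endoplasmic reticulum, 6 of 27 were at least 2-fold lower and 1 higher, with a median of -0.67. The share of lower genes, 22.2%, was near the 20.7% of all transcripts. ATF6, a membrane-bound stress sensor, was at 18.2 and 63.3 RPKM, lower by a factor of 3.48 (interval 3.14 to 3.86). ERN1, which encodes the sensor IRE1, was at 13.5 and 28.1. CALR, a chaperone of the lumen, was at 164 and 282. The stress transcription factor genes were divided, ATF4 at 218 and 162 and DDIT3, which encodes CHOP and had shared reads, at 91.9 and 31.5, but XBP1 at 21.1 and 34.3.

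Vesicle transport between the endoplasmic reticulum and the Golgi had 14 of 31 genes at least 2-fold lower (45.2%, against 20.7% of all transcripts). Another 2 were higher, and the median was -0.88. YKT6, a SNARE of vesicle fusion, was at 15.6 and 98 RPKM, lower by a factor of 6.27 (interval 5.25 to 7.54), and SURF4, a cargo receptor, at 22 and 120.4, lower by a factor of 5.46 (interval 4.61 to 6.51). Coat proteins of COPI vesicles were divided, ARCN1 at 31 and 116 and COPZ1 at 22 and 82.3, but COPE at 84.7 and 98.4. Genes of the p24 family were divided as well. TMED10 was at 28.4 and 106 and TMED2 at 37.3 and 120.1, whereas TMED9 was at 349.8 and 139.98 with shared reads. GOLGA2, a Golgi matrix protein gene with shared reads, was the other higher member at 44.9 and 20.5.

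Golgi glycosylation genes had 5 of 15 at least 2-fold lower (33.3%, against 20.7% of all transcripts), 0 higher and a median of -0.81. The beta-galactosyltransferase family, which adds galactose to glycans, covered most of this range. B4GALT1 was at 5.11 and 34 RPKM, lower by a factor of 6.64 (interval 4.99 to 9.01), whereas B4GALT3 was at 58.1 and 32.6 and B4GALT7 at 74.9 and 49.5. MGAT2, which starts a branch of complex glycans, was at 8.92 and 56.2, and the sugar carriers SLC35C1 and SLC35A2 were at 8.02 and 56.8 and at 10.6 and 33.8.

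The list of extracellular matrix genes does not hold the nested matrix genes OMD, ECM2, ASPN and OGN described above as higher. In it, 12 of 15 were at least 2-fold lower (80%, against 20.7% of all transcripts) and 0 higher, with a median of -1.15. THBS1, the adhesive glycoprotein thrombospondin, was at 12.3 RPKM in the mitotic and 111 in the interphase library and 67.5 in midbodies, lower in the mitotic library by a factor of 9.0 (interval 8.16 to 9.95). BGN, the proteoglycan biglycan, was at 11.1 and 72.5 RPKM. Basement membrane genes differed among themselves, LAMC1 being at 26.6 and 97.3 and COL4A1 at 20.2 and 51.2, but LAMB1 at 119 and 116. The fibrillar collagen gene COL5A1 had the highest ratio, at 178 and 88.6, just short of the 2-fold line, which it crossed under both other scalings. TIMP1, an abundant protease inhibitor, was level at 404 and 418.

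Genes of surface receptors, adhesion and transport had 9 of 24 at least 2-fold lower (37.5%, against 20.7% of all transcripts) and 1 higher. Their median was -0.82. The integrins, which bind matrix, spread over both sides. ITGB5 was at 17.3 and 81.2 RPKM and ITGA6 at 7.87 and 35.2, whereas ITGA3 was at 86.9 and 44.1 and ITGA5 at 124 and 80.2. NOTCH2, a receptor of cell contact, was at 10.1 and 35. CD9, a tetraspanin, was the higher member at 38.8 and 5.8, 6.7-fold (interval 5.21 to 8.7), while the tetraspanin gene CD81 was at 16.7 and 51.7.

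Lysosome genes had 7 of 19 at least 2-fold lower (36.8%, against 20.7% of all transcripts), 1 higher and a median of -0.82. PSAP, the precursor of the saposins that help degrade sphingolipids, was at 49.4 and 188 RPKM, lower by a factor of 3.81 (interval 3.52 to 4.13). ASAH1, an acid ceramidase, was at 25.9 and 86. MCOLN1, a calcium channel of the lysosome with shared reads, was higher at 104 and 33.8.

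Heterotrimeric G proteins, which couple surface receptors to signalling inside the cell, had the lowest median of all lists, -1.60. Of 13 genes, 9 were at least 2-fold lower (69.2%, against 20.7% of all transcripts) and 0 higher, and all 13 lay below 0. GNG5, at -0.02, crossed 0 under both other scalings and with its transcripts summed. With whole-number reads only, another transcript stood for GNG5 and was at least 2-fold higher in the mitotic library. Alpha subunit genes made up most of the low end. GNA12, an alpha subunit of the G12 class, was at 14.1 and 115 RPKM, lower by a factor of 8.17 (interval 7.34 to 9.12). GNA11 and GNAQ, which activate phospholipase C, were at 10.1 and 100.3 and at 10.5 and 45.4. The inhibitory subunits GNAI3 and GNAI2 were at 13.3 and 94.8 and at 66 and 202. GNAS, the stimulatory subunit, was nearer the line of equal levels at 219.8 and 301. Of the beta and gamma subunits, GNB1 was at 142 and 299, GNG12 at 17.5 and 90.6 and GNG5, with shared reads, at 98.1 and 99.8.

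**Figure D4:**
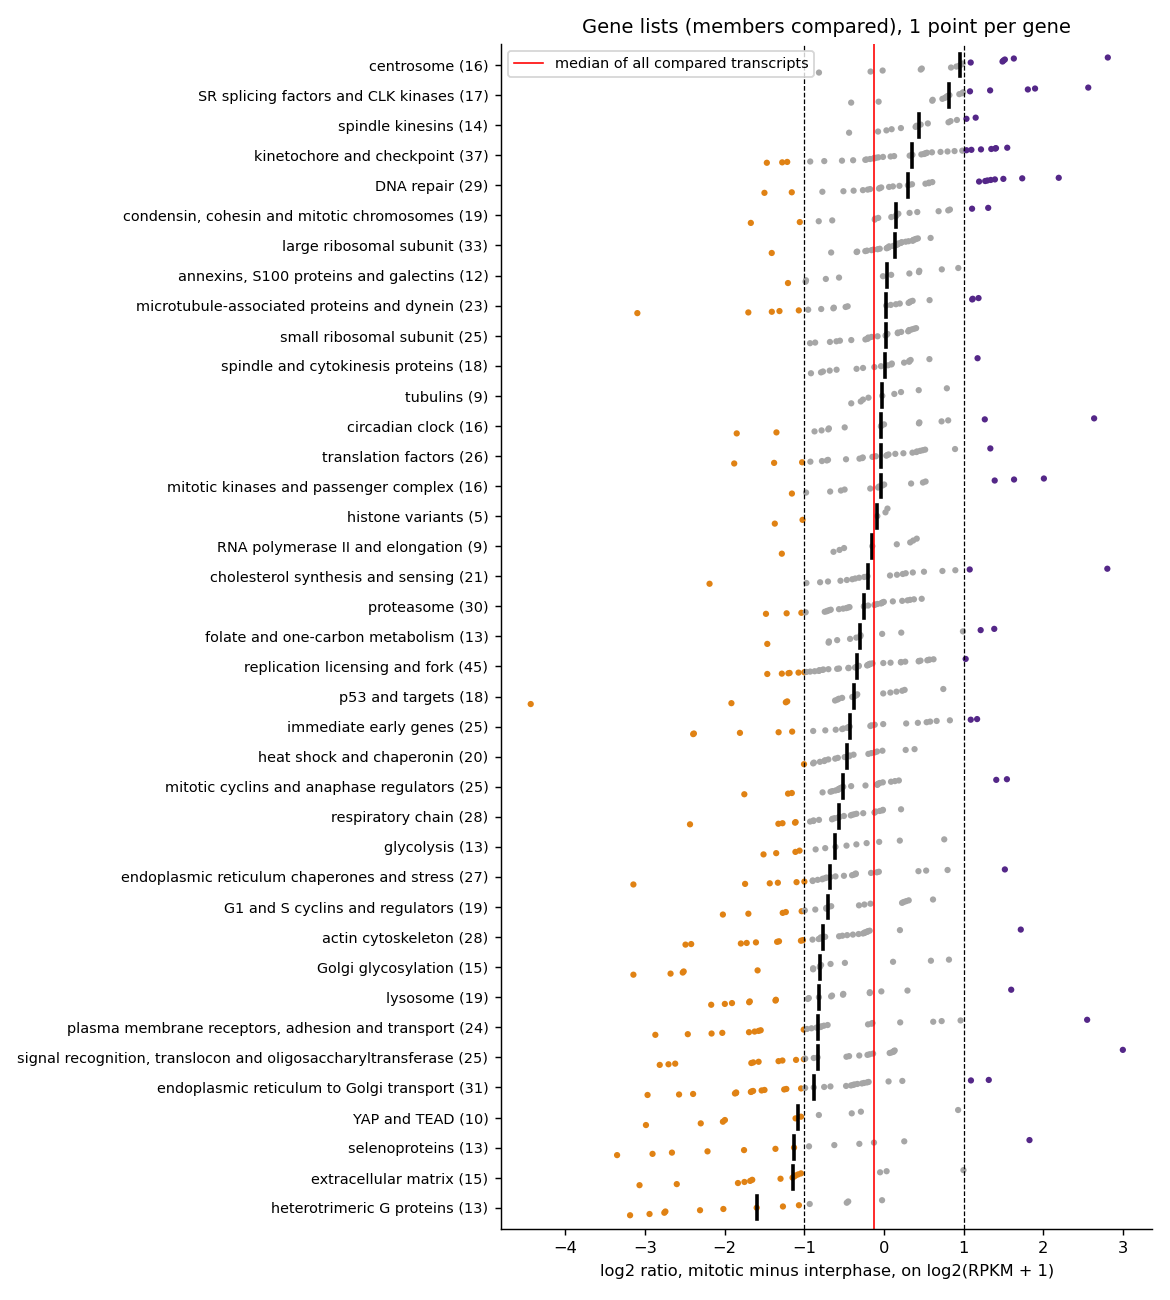
Log2 ratio of mitotic to interphase microtubule RNA for the compared members of 39 gene lists, 1 point per gene, ordered by the median (black bar). Purple points are at least 2-fold higher, orange points at least 2-fold lower, and the red line is the median of all 13176 compared transcripts, -0.13. Medians run from -1.60 for heterotrimeric G proteins to 0.96 for centrosome genes.

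Tubulin genes, which encode the microtubule subunits, were within 2-fold, 0 of 9 higher and 0 lower, with a median of -0.02 whose sign turned to positive in 5 of the 8 alternative treatments of the data that could be applied to them, and 1 or 2 members reached 2-fold higher in 4 of these. TUBB was the most mitotic at 260.2 and 150.1 RPKM and TUBB6 the least at 97 and 129. All 9 compared tubulin transcripts carried shared reads, since these genes are close paralogs. Microtubule-associated proteins and dynein subunits had 3 of 23 genes higher and 5 lower (21.7%, against 20.7% of all transcripts). Their median of 0.03 turned negative when transcripts of a protein were summed. The end-binding family, which tracks growing plus ends, was split. MAPRE2 was at 4.49 and 46 RPKM, lower by a factor of 10.2 (interval 7.35 to 14.7), and MAPRE1 at 35.1 and 88.7, whereas MAPRE3 was higher at 22.4 and 9.84. CLIP1, another plus-end protein, was at 108 and 49.3, and MAP1B, a structural microtubule-associated protein, at 170.5 and 74.3. DYNC1LI1, a light intermediate chain of dynein, was at 19.5 and 53.4, while the motor's heavy chain DYNC1H1 was at 70.5 and 61.3.

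Of 28 actin cytoskeleton genes, 9 were at least 2-fold lower (32.1%, against 20.7% of all transcripts), 1 was higher and 18 lay between. Their median was -0.77. Shared reads were found for 14 of them. TAGLN2, an actin-binding transgelin, was at 64 and 214 RPKM, and MYL9, a myosin light chain, at 0.717 and 8.67. RHOB, an early-response GTPase, was at 3.15 and 21.2, and RHOA, which drives contraction, at 67 and 169, lower by a factor of 2.52 (interval 2.34 to 2.7). The nucleating Arp2/3 complex was split: ACTR3 was at 39.7 and 123, but ACTR2, with shared reads, at 539 and 163. Calcium and carbohydrate binding proteins of the annexin, S100 and galectin families had 0 of 12 higher, 1 lower and a median of 0.04. The lower share, 8.3%, was below the 20.7% of all transcripts. S100A4 was at 398 and 208 RPKM, and S100A6, among the most abundant transcripts of the mitotic library, at 651 and 479. ANXA1, a membrane-binding annexin, was at 82.3 and 191, lower by a factor of 2.32 (interval 2.15 to 2.51), and at 365.1 in midbodies.

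Ribosomal protein genes, the abundant core of the translation machinery, were close to level. None of 25 genes of the small subunit passed 2-fold, with a median of 0.02. Of 33 genes of the large subunit, 0 were higher and 1 was lower (3.0%, against 20.7% of all transcripts), with a median of 0.14. The lower one was RPLP0, of the ribosomal stalk, at 101 and 271 RPKM with shared reads. RPSA, the laminin receptor precursor of the small subunit, was at 233 and 425, and RPL26 at 318 and 240.5. In all, 11 of the small subunit and 19 of the large subunit transcripts carried shared reads, so single members are uncertain.

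Translation factors had 1 of 26 higher (3.8%, against 16.6% of all transcripts), 3 lower (11.5%, against 20.7%) and a median of -0.04. EIF2S3, of the factor that brings the initiator tRNA, was at 31.3 and 118 RPKM, lower by a factor of 3.77 (interval 3.51 to 4.06), while the other subunit genes EIF2S1 and EIF2S2 were at 76.2 and 94.6 and at 192 and 139.6. EIF4A2, a helicase of initiation, was at 65.5 and 25.3 with shared reads, and PABPC1, which binds poly-A tails, at 397 and 277. Proteasome genes had 0 of 30 higher, 3 lower (10%, against 20.7% of all transcripts) and a median of -0.25. PSMD1, a scaffold of the regulatory particle, was at 24.1 and 69.3 and PSMC5, an ATPase of that particle, at 155 and 111. Heat shock and chaperonin genes had 0 of 20 higher and 1 lower (5%, against 20.7% of all transcripts), with a median of -0.47. DNAJB1, a co-chaperone and the lower one, was at the line with 24.9 and 51 and short of it under both other scalings, and CCT3, of the tubulin-folding chaperonin, was the highest with 262 and 201.

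Metabolic lists had medians below that of all transcripts to different degrees. Respiratory chain genes had 0 of 28 higher, 5 lower (17.9%, against 20.7% of all transcripts) and a median of -0.56. SDHD, a membrane anchor of succinate dehydrogenase, was at 27.4 and 153 RPKM, lower by a factor of 5.57 (interval 4.56 to 6.88), and ATP5F1B, the catalytic subunit of ATP synthase, at 103 and 251. SDHB, of the first of these enzymes, was at 106 and 140.1. Glycolysis had 0 of 13 genes higher, 4 lower (30.8%, against 20.7% of all transcripts) and a median of -0.61. LDHA, which makes lactate, was at 138.6 and 397 and PGAM1 at 104 and 219, whereas PFKM, a phosphofructokinase, was at 28 and 16.2.

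Cholesterol genes had 2 of 21 higher (9.5%, against 16.6% of all transcripts) and 1 lower (4.8%, against 20.7%). Their median of -0.21 was close to that of all transcripts. TM7SF2, a sterol reductase, was at 13.1 and 1.02 RPKM, and FDPS, which makes farnesyl diphosphate, at 139.7 and 65.7. Folate genes had 2 of 13 higher (15.4%, against 16.6% of all transcripts), 1 lower (7.7%, against 20.7%) and a median of -0.30. Selenoprotein genes, whose messages recode a stop codon, had 1 of 13 higher and 7 lower (53.8%, against 20.7% of all transcripts). Their median was -1.13. SELENOF, of protein folding in the endoplasmic reticulum, was at 18 and 119, lower by a factor of 6.63 (interval 5.65 to 7.82), and MSRB1, which repairs oxidized methionine, at 7.78 and 39.8. The higher selenoprotein gene was TXNRD2, the mitochondrial thioredoxin reductase, at 61.6 and 16.6.

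Signal-dependent transcription factors and their targets were varied. Immediate early genes, switched on within minutes of a stimulus, had 2 of 25 higher, 5 lower and a median of -0.43. The share of lower genes, 20%, was near the 20.7% of all transcripts. Their summed RPKM went the other way, 1567 against 1477, with abundant members such as IER3, at 243 and 153, and MYC, at 233 and 161, on the higher side. SRF, the factor that drives many of them, was at 13.5 and 75 RPKM, lower by a factor of 5.55 (interval 4.8 to 6.44). NR4A1, an orphan nuclear receptor, was at 13.3 and 49, and at 81.4 in midbodies. HBEGF, a growth factor precursor, was the highest at 77.4 and 33.9.

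Of 10 genes of Hippo pathway coactivators and their partners, 6 were at least 2-fold lower (60%, against 20.7% of all transcripts) and 0 higher. Their median was -1.08. YAP1, the coactivator that responds to spreading and adhesion, was at 7.35 RPKM in the mitotic and 65.3 in the interphase library, lower by a factor of 8.89 (interval 7.03 to 11.4). Its paralog WWTR1, known as TAZ, was at 11.9 and 51.5 RPKM, and LATS2, the kinase that restrains both, at 9.07 and 48.6. The target genes CCN1 and CCN2, which also count among the matrix genes, were at 35.7 and 74.6 and at 2.09 and 5.67, whereas the target ANKRD1 was at 89.5 and 46.5.

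Of 18 genes of p53 and its targets, 0 were higher and 4 lower, with a median of -0.38. The share of lower genes, 22.2%, was near the 20.7% of all transcripts. Besides ZMAT3, the lower ones were PHLDA3, an AKT inhibitor, at 20.9 and 81.8 RPKM, the CDK inhibitor gene CDKN1A at 44.5 and 106, and AEN, a nuclease of apoptosis, at 26.8 and 63.5. MDM2, which marks p53 for destruction, was level at 104 and 105. Circadian clock genes had 2 of 16 higher, 2 lower and a median of -0.04, or -0.36 over the 12 genes with whole-number reads. Both shares, 12.5%, were below the 16.6% higher and 20.7% lower of all transcripts. CIART, a repressor of the clock, was at 48.6 and 6.97 RPKM, 6.98-fold (interval 5.62 to 8.73) higher, and PER2 was at 10.9 and 3.95. TEF, an output factor of the clock, and the nuclear receptor gene NR1D2 were lower, at 4.92 and 20.3 and at 16.2 and 42.8.

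The chosen markers of other cell types were at or near 0 in both libraries, with 1 exception. They ranged from leukocytes and endothelium to liver, muscle and the ovary's own cells. The list does not hold MYF6 and ALAS2, genes of muscle and of red cell precursors described above at the high end. Of the 13 marker transcripts in the table, 3 had no read in the mitotic and 7 no read in the interphase library, and their summed level was 14.3 and 3.06 RPKM. PTPRC, the marker of leukocytes, had no read in either. PECAM1, of endothelium, was at 0.261 and 0.83 RPKM. The 1 that reached 1 RPKM was AMH, a hormone gene of the granulosa cells of the ovary, at 12.2 RPKM in the mitotic and 1.16 in the interphase library and 7.49 in midbodies. A count of 0 allowed a depth-scaled count (CPM) of up to 0.372 on the mitotic and 0.237 on the interphase side.

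Abundance moved with the counts. Among transcripts with a mean of 1 to 2 RPKM, 40.2% were at least 2-fold higher in the mitotic library and 7.94% lower. Between 10 and 20 RPKM the shares were 13.6% and 26.4%, and above 100 RPKM they were 11.3% and 9.70%. Scarce transcripts were therefore more often higher than other transcripts, and transcripts of middle abundance more often lower. By length, the share at least 2-fold lower was 22.8% in the shortest 20% of transcripts and 13.1% in the longest 20%, while the share higher lay between 15.6% and 17.3% in all 5 length classes. The part of abundance and length in the gene lists was not tested.

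**Figure D5:**
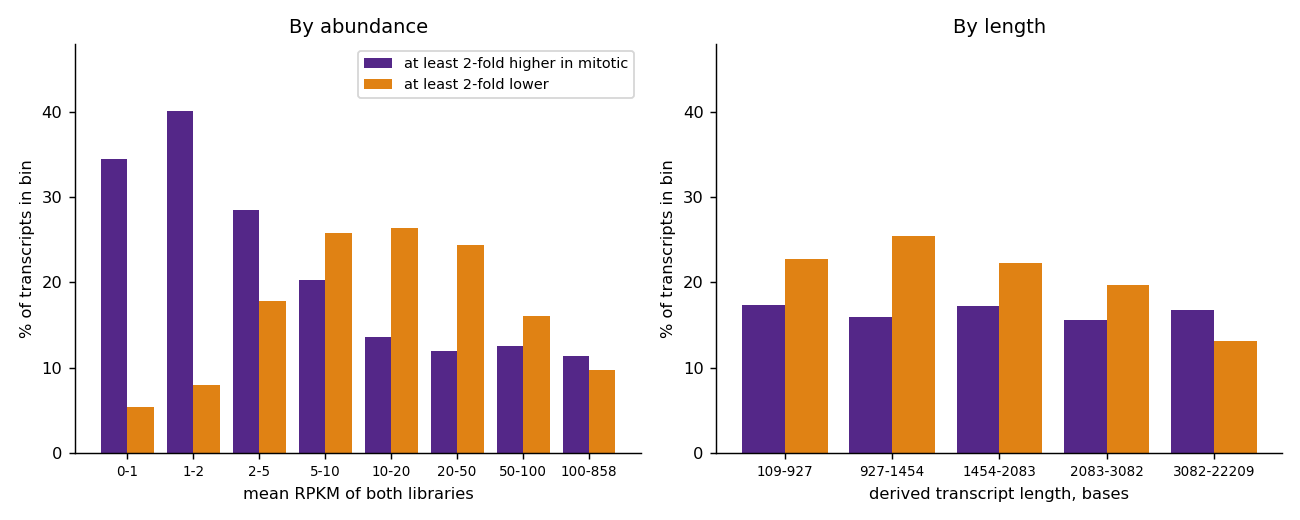
Share of compared transcripts at least 2-fold higher (purple) or lower (orange) in the mitotic library, by mean RPKM of both libraries and by derived transcript length. Higher shares peak at 1 to 2 RPKM with 40.2%, and lower shares fall to 13.1% among the longest transcripts.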

How the data were processed

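Poly-A RNA was prepared with Qiagen, Exiqon and Illumina TruSeq version 2 kits, per the labels' protocols. The deposited table gives estimated counts of reads per RefSeq transcript, the authors' values before normalization, fractional in 14.9% (interphase) and 16.9% (mitotic) of transcripts. The RPKM beside them are the authors' own, per the file headers. Dividing one by the other gave a whole-number length (tolerance 1e-06) for all 18792 transcripts with reads. No aligner, counting program, genome build or strand setting is named in the sources used here, and the authors' enrichment scores were not used. Fractional reads were taken as shared between transcripts.

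Log2 ratios used a pseudocount of 1 and a floor of 1 RPKM in either library. The 39 gene lists and the marker list were written with earlier results of these data known, as was the choice of comparison, so no list is independent evidence. Lists hold 863 symbols, of which 821 were found. Symbols were assigned to the authors' UniProt matches (E-value at most 1e-20) from general knowledge of UniProt, and 112 of 112 that could be compared with RefSeq symbols (CriGri-PICRH-1.0) were equal. Another 30 symbols were assigned after values were seen. The transcript with most reads stood for a protein. Named genes were the 15 highest and 15 lowest ratios at 10 RPKM and 50 reads, the 5 most abundant transcripts a library, up to 4 members a list with the largest ratios, and members that complete a group. Some single genes are not reported here. Alternatives were pseudocounts of 0.1 and 5, no floor and one of 10 RPKM, median of ratios and trimmed mean of M values scaling (30% of ratios and 5% of abundances trimmed), CPM, sums by protein, and transcripts with whole-number reads only. The procedure was run on simulated counts with planted changes and counting error only. These hold no difference between preparations, so the run cannot judge how far such differences enter the 2-fold counts. Python 3.11.15, NumPy 2.4.6, pandas 2.3.3, SciPy 1.17.1 and Matplotlib 3.10.9 were used.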

Additional observations from a re-analysis of the deposited data

How the results depend on the processing

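The count of transcripts at least 2-fold higher in the mitotic library, 2183, dropped to 1196 when the pseudocount was 5 and to 1399 when the floor was 10 RPKM, and the other 7 alternatives left it between 1637 and 2547. The count at least 2-fold lower, 2725, lay between 1936 and 3033. Higher transcripts were 44.5% of those past 2-fold, and 37.0% to 46.4% under the alternatives. The median log2 ratio of -0.13 became 0.063 with no floor and -0.23 with a floor of 10 RPKM. The trimmed mean and median of ratios scalings shifted all ratios by 0.03. Of 156 named transcripts past 2-fold, 151 stayed past it with a pseudocount of 5 and 153 under each scaling. None of these 156 changed sign where it was compared. Those compared numbered 154 with a floor of 10 RPKM and 136 with whole-number reads only. Named transcripts within 2-fold are outside these counts, and some near 0, such as GNG5, did change sign. With whole-number reads, medians moved to 0.15 for DNA repair, -0.36 for circadian clock and -0.32 for RNA polymerase II genes. List medians changed sign for tubulins under 5 alternatives, and under 1 each for spindle and cytokinesis genes, small ribosomal subunit, translation factors, microtubule-associated proteins and dynein, and annexins with S100 proteins and galectins. All these medians were within 0.2 of 0. No paired analysis was possible because each group had 1 library, and for the same reason none could be left out. The difference between preparations of 1 condition is therefore unknown, and counting intervals are the only error given. A transcript of few reads, such as one with 5 or fewer in interphase, has a fold known only within a wide interval.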
